A study of Mus musculus with 12 samples.

Results

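*Angptl4*, *Pdk4*, *Ucp3*, *Acot1* and *Acot2* are target genes of the peroxisome proliferator-activated receptors (PPARs) that respond to fatty acids, and their RNA was followed in 12 single mouse hearts. The 5 genes were taken by name from a table of 19308 genes, and they were chosen by 1 measured pattern, a level of *Angptl4* that was higher in every KO sham heart than in every WT sham heart. All mice were of the C57BL/6 strain and were operated on at 8 weeks of age. WT sham and WT TAC hearts carried intact *Fabp3*, which encodes the fatty acid-binding protein of heart muscle, and KO sham and KO TAC hearts came from Fabp3-null mice, a global knockout made with CRISPR-Cas9, so every cell type of the body lacked the intact gene. In TAC (transverse aortic constriction) the aortic arch was tied against a needle that was then withdrawn, which leaves the left ventricle pumping against a raised pressure, and sham mice served as the surgical control. Hearts were collected 1 week after surgery, with 3 hearts in each of the 4 groups, and the comparisons ask how these genes differed with loss of *Fabp3* and with pressure load. The sources used here give neither the feeding state nor the hour of collection, both of which are known to move PPAR target genes.

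PPARs are nuclear receptors that bind fatty acids and their derivatives and, paired with a retinoid X receptor, bind response elements built from repeats of AGGTCA. In the heart PPARα is the main form and raises genes of fatty acid uptake and oxidation, and fasting and circulating fatty acids raise many of its targets. Each of the 5 genes acts at a different step: *Angptl4* encodes a secreted inhibitor of lipoprotein lipase, *Pdk4* a kinase that shuts off the pyruvate dehydrogenase complex and so spares glucose, *Ucp3* a carrier of the inner mitochondrial membrane that follows fatty acid supply, and *Acot1* and *Acot2* thioesterases of the cytosol and of mitochondria that release fatty acids from coenzyme A. *Pdk4* and *Angptl4* are also known targets of glucocorticoids, and *Pdk4* of FOXO factors.

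Sequences were set beside the measurements to show how far the members can be told apart and which of them carry a PPAR-type element near the start. *Acot1* and *Acot2* are neighbours in a cluster on mouse chromosome 12 that also holds *Acot3* to *Acot6*. Their coding sequences, of 1257 and 1359 bases in GENCODE M21 transcripts, were identical at 1178 of 1232 aligned bases (95.6%), with a longest identical run of 273 bases. Of the 2223 words of 50 bases in the *Acot1* transcript, 527 (23.7%) also occurred in that of *Acot2*. Reads from such stretches could be given to either gene, so both levels are uncertain, by an amount that was not measured. The 30 bases below, from coding base 1145 of *Acot1* and coding base 1268 of *Acot2*, are shown because they tell the pair apart, with the bases that differ in capitals.
Acot1: ttggaggggagcccaAgCctcatgccAtgg
Acot2: ttggaggggagcccaGgGctcatgccGtgg

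Promoter windows of RefSeq (build GRCm38.p6), from 250 bases before to 50 bases after the gene start, were given for 4 of the 5 genes, *Angptl4* being the exception. The half-site AGGTCA, searched on both strands, occurred in 16.3% of all 32851 windows and, among the 4 members, in *Ucp3* alone, where it was found at 149 and at 44 bases before the start. The complete PPAR response element, 2 copies of AGGTCA in the same direction with 1 free base between, was found in 0.0396% of the windows and in none of the members. The best partial match to this repeat before the start held 10 of its 12 fixed letters in *Ucp3* (a score reached by 3.24% of all windows), 9 in *Acot2* (21.3%), and 8 in *Pdk4* and *Acot1* (74.5%). The palindromic glucocorticoid response element (0.475% of all windows) and the FOXO element GTAAACA (3.65%, both strands) were found in none of the 4 member windows. The first line below shows the distal *Ucp3* half-site in capitals, and the others show the best partial repeat of each gene in capitals, that of *Ucp3* ending in its proximal half-site. The lines lie, in order, at chr7:100472830-100472859 and chr7:100472932-100472961 on the plus strand, chr12:83987795-83987824 and chr12:84009401-84009430 on the plus strand, and chr6:5496413-5496442 on the minus strand.
Ucp3 distal: ttaaagagccccAGGTCAcggaagctaaac
Ucp3 proximal: tcagaattAGGTTTCAGGTCAgctggtgca
Acot2 partial: gctcagcaAGCACACAGCTCAgtctaagga
Acot1 partial: ggaggtgtCTGTCTGAGGCCAaccaatggg
Pdk4 partial: aagggaggAGCCCAAAGTTCTttctctgag

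Libraries held 10424334 to 14372011 estimated counts, and the 5 genes passed the filter on low counts that left 14094 genes. *Fabp3* was still counted in KO hearts, at 1065 ± 24.4 CPM (counts scaled to a common library size, SD, n = 3) against 2466 ± 367 in WT after sham, and at 1053 ± 78.0 against 2952 ± 97.4 after TAC, where it was 2.80-fold lower with an adjusted p of 0.00146 by edgeR. The summed level of 8 markers of ventricular cardiomyocytes was 57041 to 71265 CPM in KO TAC hearts and 65591 to 98334 CPM in the others, and the 6 adipocyte markers that were measured summed to at most 2.06 CPM. The 8 hepatocyte markers summed to 1.98 to 15.3 CPM in 10 hearts but to 101.2 in KO TAC replicate 2 and 145.2 in KO TAC replicate 3. The 7 skeletal muscle markers summed to 16.8 to 30.1 CPM after sham and 39.8 to 149.3 after TAC, nearly all of it from *Mybpc2* (14.9 to 27.7 and 35.3 to 143.8 CPM), with *Myh1*, *Myh2* and *Myh4* at or near 0. In whole hearts, fewer cells of a type and less RNA per cell cannot be told apart.

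Per length of transcript, *Pdk4* and *Acot2* were the most abundant of the 5 in WT sham hearts, with means of 56.3 and 48.1 CPM per kb. *Ucp3* followed at 16.6 and *Acot1* at 8.27 CPM per kb, and *Angptl4*, at 1.65 CPM per kb, was the least abundant. In KO TAC hearts *Angptl4* stood at 11.9 CPM per kb, above *Ucp3* at 11.4 and *Acot1* at 3.52.

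*Angptl4*, which restrains the release of fatty acids from circulating triglycerides, had higher values in Fabp3-null hearts after both operations, after sham by the way it was chosen. Its level was 8.16, 4.03 and 4.17 CPM in the 3 WT sham hearts and 27.5, 17.3 and 23.9 CPM in the KO sham hearts. The nearest hearts across this gap were the WT sham heart at 8.16 and the KO sham heart at 17.3, and 6.78% of all genes tested were likewise higher in every KO sham than in every WT sham heart. The fitted difference was 2.08 on the log2 scale, or 4.22-fold, given as a description only.

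After TAC, in hearts that the choice had not used, *Angptl4* was 43.0, 8.19 and 2.0 CPM in WT and 50.5, 47.7 and 20.2 CPM in KO. The KO TAC hearts were higher than WT TAC replicates 2 and 3 but overlapped with WT TAC replicate 1, and the range within the WT TAC group was 21.5-fold. KO TAC exceeded WT TAC by 1.14 on the log2 scale (SE 0.73, 95% interval -0.45 to 2.73), which did not pass the test (edgeR's quasi-likelihood test, adjusted p = 0.590). Without WT TAC replicate 1 the difference was 2.93 (SE 0.58, edgeR adjusted p = 0.114), which also missed the threshold of 0.05. The hepatocyte marker sums of KO TAC replicates 1, 2 and 3 were 1.98, 101.2 and 145.2 CPM, and their part in the *Angptl4* level was not tested.

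With TAC, *Angptl4* was 1.72 higher on the log2 scale in WT and 0.78 higher in KO, both as descriptions, since the sham hearts had served to choose it. The WT value came down to -0.072 without WT TAC replicate 1. By median the groups ran in the order WT sham, WT TAC, KO sham and KO TAC, and each overlapped with the next.

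**Figure D1:**
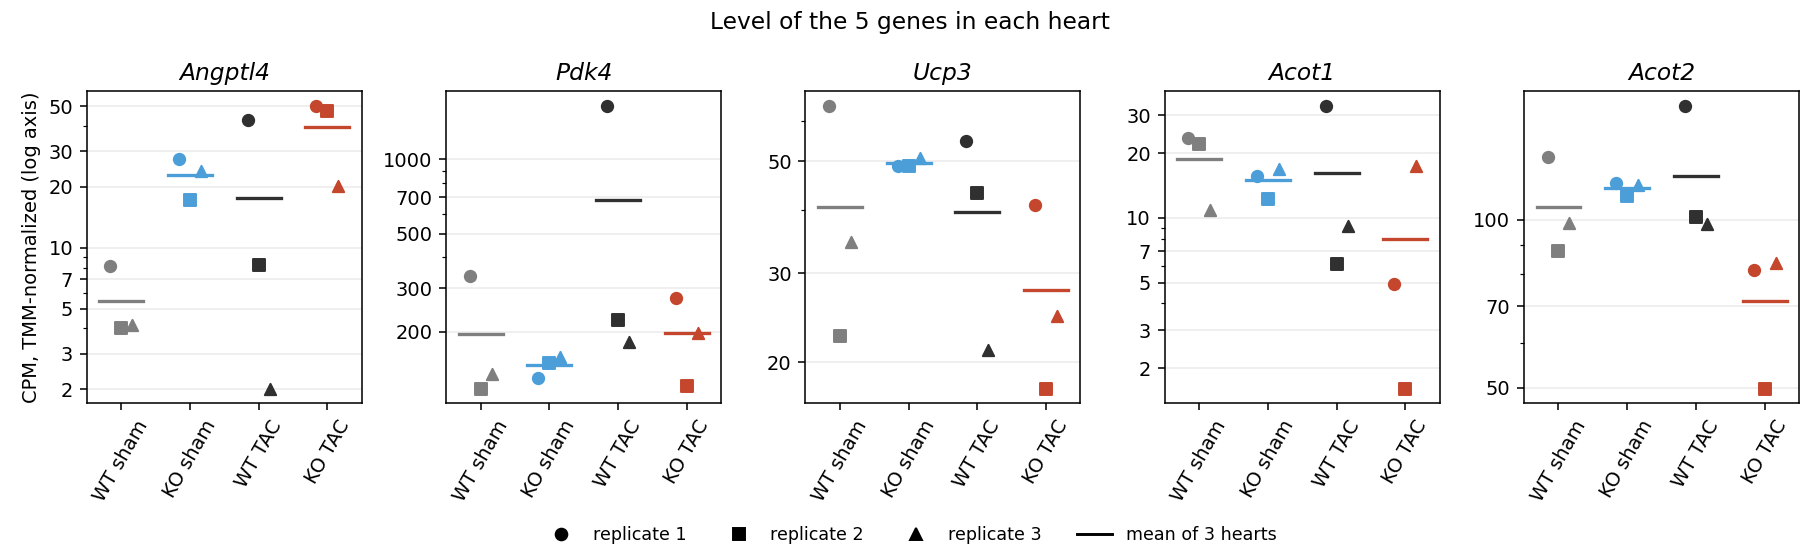
Level of each gene in the 12 hearts, as TMM-normalized CPM on a log axis whose range differs between panels, with a point for each heart (its shape gives the replicate number) and a line at the mean of the 3 hearts of a group. WT TAC replicate 1 stood at 1651 CPM of *Pdk4* against 116.7 to 338 in the other hearts, and the 3 KO TAC hearts lay below all others for *Acot2*.

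*Pdk4*, which diverts the heart from glucose to fatty acid oxidation, stood far above its other levels in a single heart. It was 338, 116.7 and 134.0 CPM in WT sham, 130.0, 149.7 and 157.7 in KO sham, 1651, 223 and 181 in WT TAC, and 273, 120.1 and 197 in KO TAC hearts. All 4 groups overlapped with their neighbours in the order of medians, and the value of WT TAC replicate 1 was 2.29 higher on the log2 scale than that of any other heart. Of the 13418 genes with a mean of at least 1 CPM, 19, *Pdk4* included, had so wide a gap between their highest heart and the next. Of the 1438 genes that were highest in WT TAC replicate 1, *Pdk4* had the widest gap.

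KO TAC was below WT TAC by 1.80 on the log2 scale for *Pdk4* (fitted difference -1.80, SE 0.73, 95% interval -3.39 to -0.22), with an adjusted p of 0.474 by edgeR. WT TAC exceeded WT sham by 1.80 (SE 0.73, edgeR adjusted p = 0.782). Neither passed, and without WT TAC replicate 1 these differences were -0.039 and 0.042. KO TAC exceeded KO sham by 0.43 (95% interval -1.11 to 1.98, adjusted p = 0.797 by edgeR). KO sham stood 0.43 below WT sham (-0.43, description only), and 0.22 above it when WT sham replicate 1, the highest sham heart, was left out.

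Among the 4 pyruvate dehydrogenase kinases, *Pdk4* took 70.0% of the summed counts in WT TAC replicate 1 and 11.1% to 32.3% in the other 11 hearts. *Pdk2*, the most abundant kinase of the 4 in those hearts, was 533 CPM in WT TAC replicate 1 and 385 to 884 CPM across all hearts. *Pdk1* was 169 CPM in WT TAC replicate 1, within its range of 133 to 251 CPM. *Pdha1*, the subunit that these kinases phosphorylate, was 1103 CPM there and 942 to 1353 CPM in all hearts. The height of *Pdk4* in that heart was thus not shared by *Pdk1*, *Pdk2* or *Pdha1*.

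*Ucp3* varied widely within 3 of the groups, and its values were lower in KO TAC than in KO sham hearts. It was 64.5, 22.5 and 34.7 CPM in WT sham, 54.9, 43.3 and 21.1 in WT TAC, and 41.1, 17.7 and 24.7 in KO TAC hearts, whereas the KO sham hearts were close together at 49.1, 49.0 and 50.9 CPM. KO TAC hearts were all below KO sham hearts, by 0.84 on the log2 scale (-0.84, SE 0.41, edgeR adjusted p = 0.318), and the test was not passed. In this comparison 11.4% of all genes tested were lower without overlap. Against WT TAC the KO TAC value was -0.52 (95% interval -1.41 to 0.37, adjusted p = 0.661 by edgeR), and WT TAC differed from WT sham by -0.024 (95% interval -0.91 to 0.86). KO sham was 0.29 above WT sham, as a description. Its relative *Ucp2*, which is also expressed by immune cells, was 137 to 170.5 CPM in KO sham and 192 to 225 CPM in KO TAC hearts. Of all genes tested, 11.5% were likewise higher without overlap. The values of *Ucp3* and *Ucp2* lay in opposite directions there, although neither passed the test (*Ucp2* 0.44, adjusted p = 0.523 by edgeR). *Ucp3* made up 8.27% to 15.5% of the summed *Ucp2* and *Ucp3* counts in KO TAC hearts and 16.4% to 46.1% in the other 9. Macrophage markers summed to 196 to 317 CPM in KO TAC and 114 to 152 CPM in KO sham hearts, and their part in the *Ucp2* level was not tested.

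*Acot2*, the mitochondrial thioesterase, was lower in every KO TAC heart than in the other 9 hearts. It was 130.0, 88.0 and 98.8 CPM in WT sham, 116.4, 110.4 and 115.4 in KO sham, 160.4, 101.1 and 98.4 in WT TAC, and 81.3, 49.6 and 83.7 in KO TAC hearts. The highest KO TAC heart, at 83.7 CPM, was just below the lowest of the others, a WT sham heart at 88.0 CPM, and 226 genes (1.6% of those tested) were likewise lower in all KO TAC hearts. The other 3 groups overlapped with one another.

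For *Acot2*, KO TAC stood 1.68-fold below WT TAC (log2 difference -0.75, SE 0.23, 95% interval -1.26 to -0.24), with an adjusted p of 0.436 by edgeR. Against KO sham it was 1.6-fold lower (-0.67, SE 0.23, edgeR adjusted p = 0.201). The genotype difference after TAC minus that after sham was -0.86 (SE 0.33, edgeR adjusted p = 0.954). None of these passed after adjustment over all genes, and adjusted p for the KO TAC against WT TAC difference ranged from 0.126 to 0.803 over the alternatives, in each of which KO TAC was lower. The difference was -0.48 without WT TAC replicate 1 and -0.55 without KO TAC replicate 2. WT TAC and WT sham differed by 0.19 (95% interval -0.32 to 0.69), and KO sham and WT sham by 0.11, the latter as a description. The summed ventricular cardiomyocyte markers overlapped between KO TAC and WT TAC hearts (57041 to 71265 against 67311 to 98334 CPM) and not between KO TAC and KO sham hearts (84332 to 93894 CPM), and their part in the *Acot2* level was not tested.

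*Acot1*, the cytosolic partner, had the widest relative spread of the pair. It was 23.5, 22.0 and 10.9 CPM in WT sham, 15.6, 12.3 and 16.9 in KO sham, 33.3, 6.08 and 9.20 in WT TAC, and 4.93, 1.59 and 17.5 in KO TAC hearts. Within KO TAC the highest heart was 11-fold above the lowest, which rested on 24.7 estimated counts, and all neighbouring groups overlapped. The KO TAC against WT TAC difference was -1.04 (SE 0.73, 95% interval -2.64 to 0.56, adjusted p = 0.625 by edgeR), and it was 0.051 without WT TAC replicate 1. KO TAC against KO sham gave -0.92 (adjusted p = 0.556 by edgeR), WT TAC against WT sham -0.20 (adjusted p = 0.975 by edgeR), and KO sham against WT sham -0.33 as a description. *Acot1* supplied 3.07% to 19.96% of the counts of the pair. Because reads of the pair can be confused, their counts were also added: the sum gave -0.78 for KO TAC against WT TAC (adjusted p = 0.463 by edgeR) and -0.70 for KO TAC against KO sham (adjusted p = 0.227 by edgeR).

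**Figure D2:**
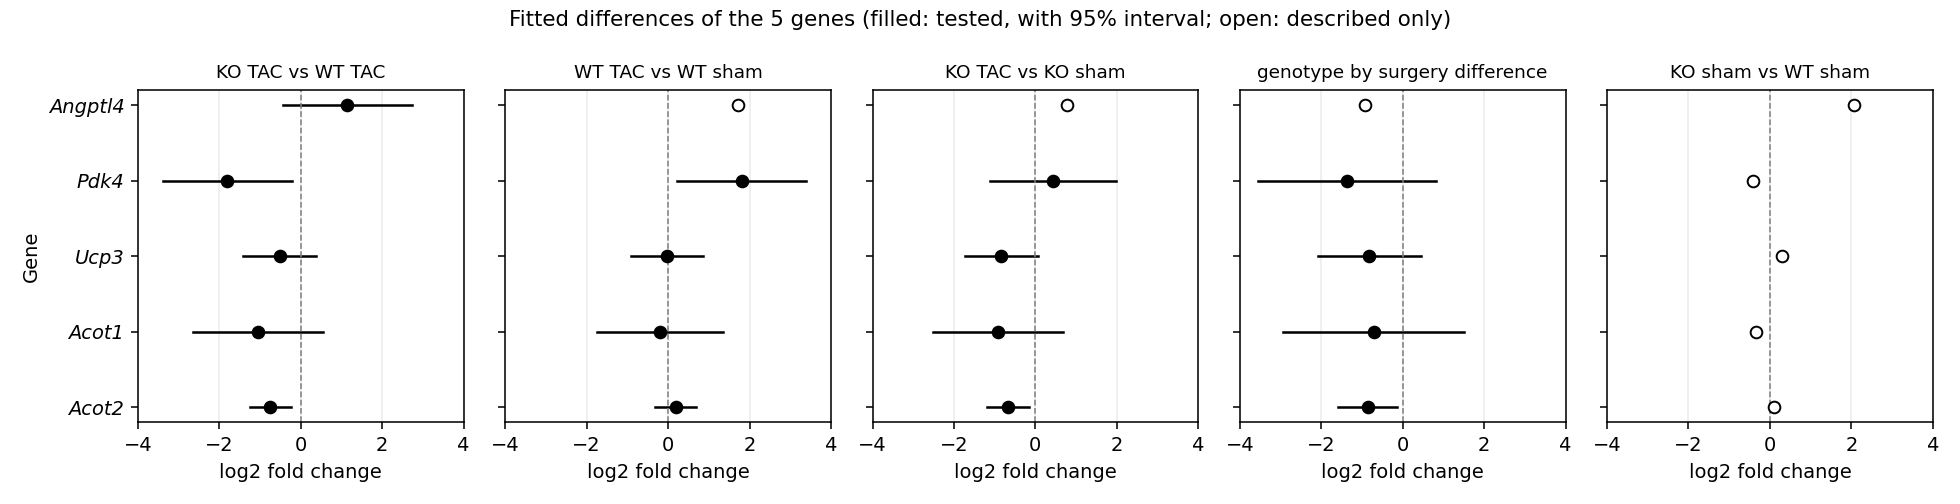
Fitted log2 fold changes of the 5 genes (rows) in 5 comparisons (panels), with 95% intervals where a test was made (filled points) and open points where the value is a description. In KO TAC against WT TAC the values run from -1.80 for *Pdk4* to 1.14 for *Angptl4*, and the narrowest interval is that of *Acot2*.

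Set against all genes, none of the 5 members passed an adjusted p of 0.05 in KO TAC against WT TAC, where 0.078% of genes did (11 of 14094). *Pdk4* and *Acot2* had an unadjusted edgeR p of at most 0.05 there, both lower, as had 4.16% of all genes, and *Acot2* alone did not overlap, as for 5.1% of all genes in the lower direction. In WT TAC against WT sham edgeR called 0 genes (DESeq2 27, limma-trend 1), while 885 reached an unadjusted p of 0.05 or less, 3.68% of all genes in the higher direction, and *Pdk4* was one of these. In KO TAC against KO sham it also called 0 (DESeq2 443, limma-trend 8), and 2412 reached the unadjusted level, 6.47% of all genes in the lower direction, *Acot2* being one. There *Ucp3* and *Acot2* belonged to the 11.4% of genes that were lower without overlap. For the genotype difference between operations it called 0 (DESeq2 6, limma-trend 1), and 632 reached the unadjusted level, 2.18% of all genes in the lower direction, again with *Acot2*. The genotype-by-surgery values were negative for the 4 tested members, at -1.37 for *Pdk4*, -0.81 for *Ucp3*, -0.71 for *Acot1* and -0.86 for *Acot2*. None passed, at adjusted p of 0.954, 0.954, 0.977 and 0.954 by edgeR, and the median of all genes was 0.032. The value of *Angptl4*, -0.94, is a description only, since the sham gap that chose the gene is subtracted in it. Without WT TAC replicate 1 the values were 0.86 for *Angptl4*, 0.39 for *Pdk4* and 0.38 for *Acot1*, but still -0.51 for *Ucp3* and -0.59 for *Acot2*.

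**Figure D3:**
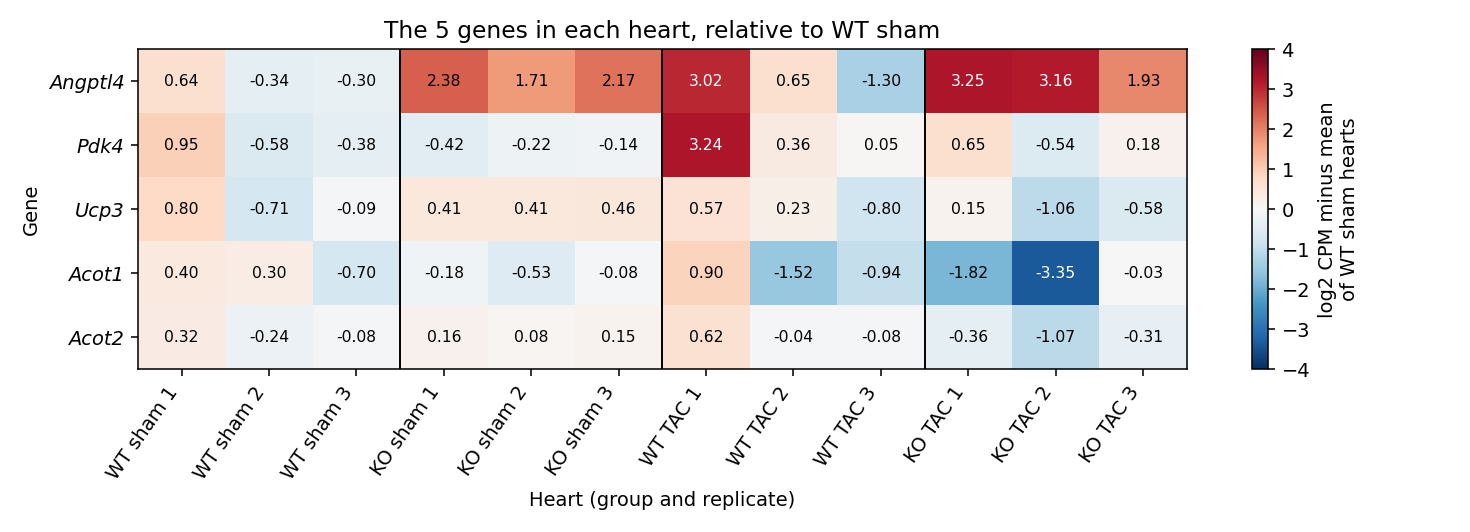
Log2 CPM of the 5 genes (rows) in each of the 12 hearts (columns), minus the mean of the 3 WT sham hearts, with the value printed in each cell. The column of WT TAC replicate 1 is above 0 for all 5 genes, from 0.57 for *Ucp3* to 3.24 for *Pdk4*, and in KO TAC replicate 2 *Angptl4* is at 3.16 while *Acot1* is at -3.35.

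In KO TAC replicate 2, *Angptl4* was 3.16 above the WT sham mean on the log2 scale, whereas *Acot1* was at -3.35, *Acot2* at -1.07, *Ucp3* at -1.06 and *Pdk4* at -0.54. In WT TAC replicate 1 all 5 were above that mean. Over the 12 hearts, as a description of points that share groups and libraries, Pearson's r was 0.83 between *Acot1* and *Acot2*, which may share reads, and 0.79 between *Ucp3* and *Acot2*, and these were 0.79 and 0.78 without WT TAC replicate 1. Between *Angptl4* and *Pdk4* r was 0.31, and 0.034 over the 11 hearts without that heart. *Angptl4* and *Acot2* had an r of -0.12. Once the group means were removed, r was positive for all 10 pairs, from 0.25 for *Angptl4* and *Acot1* to 0.87 for *Pdk4* and *Acot2*, with 0.81 for *Angptl4* and *Pdk4* and 0.52 for *Angptl4* and *Acot2*. These values were not repeated without WT TAC replicate 1, and they weigh the WT TAC group most where it is widest. Within WT TAC the range was 21.5-fold for *Angptl4* and 9.13-fold for *Pdk4*, against 1.59-fold and 1.21-fold within KO sham. Common variation within every group was therefore not shown.

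The receptors of these genes were measured in the same hearts. *Ppara* was 90.6 to 130.3 CPM in WT sham, 133 to 166 in KO sham, 84.0 to 126.7 in WT TAC and 94.6 to 107.9 in KO TAC hearts. KO TAC hearts were below all KO sham hearts, by 0.54 on the log2 scale (-0.54, edgeR adjusted p = 0.185), which did not pass. *Ppard* and the partner *Rxra* also had lower values in KO TAC than in KO sham hearts without overlap (-0.31 and -0.23, adjusted p of 0.299 and 0.386 by edgeR). Of all genes tested, 11.4% were likewise lower without overlap in this comparison. *Pparg* was 12.2 to 15.5 CPM in WT sham and 15.7 to 27.1 CPM in KO sham hearts. *Ppargc1a*, a coactivator of the receptors, differed by 0.42 between KO TAC and WT TAC (adjusted p = 0.550 by edgeR). Of the 11 receptors and cofactors listed, 0 passed in any of the 4 tested comparisons, and their median log2 difference was -0.11 in KO TAC against WT TAC and -0.26 in KO TAC against KO sham, where the medians of all genes were 0.022 and 0.022.

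Most of the other PPAR targets had lower fitted values in KO TAC, but unlike *Acot2* their mean was not lowest in every KO TAC heart. Relative to the WT sham mean on the log2 scale, it was -0.35, -0.70 and -0.064 in the KO TAC hearts. In WT TAC hearts it was 0.035, -0.14 and -0.10, so KO TAC replicate 3 lay within the WT TAC range. Of 29 measured targets other than the 5, 26 had a lower value in KO TAC than in KO sham hearts, 13 of them at an unadjusted edgeR p of at most 0.05 (6.47% of all genes in this direction) and 0 after adjustment, with a median of -0.42. *Slc25a20*, the carnitine carrier of the mitochondrial membrane, was 229 to 282 CPM in KO sham and 106.2 to 194 CPM in KO TAC hearts (-0.73, adjusted p = 0.175 by edgeR). *Acaa2*, the last enzyme of a β-oxidation round, was 835 to 1059 and 247 to 694 CPM in these groups (-0.98, adjusted p = 0.182 by edgeR). *Slc25a20* was also higher in every KO sham than in every WT sham heart (0.48, description only), as were 6.78% of all genes tested. Against WT TAC, 24 of the 29 were lower in value in KO TAC, 3 at an unadjusted edgeR p of at most 0.05 (4.16% of all genes in this direction) and 0 after adjustment, with a median of -0.35. The 8 ventricular cardiomyocyte markers had medians of -0.45 and -0.39 in these comparisons, with 8 and 7 of them lower in value, whereas all 5 macrophage and all 5 fibroblast markers were higher in value in both (medians of 0.95 and 0.53 against KO sham, and 0.37 and 0.16 against WT TAC). No marker of these 3 lists passed, and their part in the values of the PPAR targets was not tested. Of the PPAR targets, those leading in KO TAC against WT TAC were the fatty acid transporter *Slc27a1* (-1.02, adjusted p = 0.365 by edgeR) and *Plin5* (-0.74, adjusted p = 0.436 by edgeR). *Plin5* encodes a lipid droplet coat protein of oxidative tissue. In WT TAC against WT sham the median of these targets was -0.076, with 8 higher and 21 lower in value, 1 of them lower at an unadjusted p of 0.05 or less (2.6% of all genes), and in KO sham against WT sham it was 0.086.

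*Cpt1b*, the gate of fatty acid entry into mitochondria, was 618 to 874 CPM in WT sham and 516 to 816 CPM in KO TAC hearts. *Cd36*, a fatty acid translocase, was 1726 to 2064 and 1291 to 2087 CPM in these groups, which differ in both genotype and surgery. The fitted *Cpt1b* difference of KO TAC was -0.34 against WT TAC and -0.40 against KO sham (adjusted p of 0.550 and 0.293 by edgeR). For *Cd36* these differences were -0.14 and -0.13 (adjusted p of 0.844 and 0.817 by edgeR). *Lpl*, whose product is inhibited by ANGPTL4, was 8627 to 9287 CPM in WT sham, 7369 to 8402 in KO sham, 5902 to 9744 in WT TAC and 4915 to 10637 in KO TAC hearts. *Gpihbp1*, which anchors the lipase on capillaries, was 176 CPM in WT TAC replicate 1 and 62.6 to 122 CPM elsewhere. Of the 8 measured genes of the ANGPTL and lipase list, 0 passed in the 4 tested comparisons, with medians of -0.15 in KO TAC against WT TAC and 0.081 in WT TAC against WT sham.

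**Figure D4:**
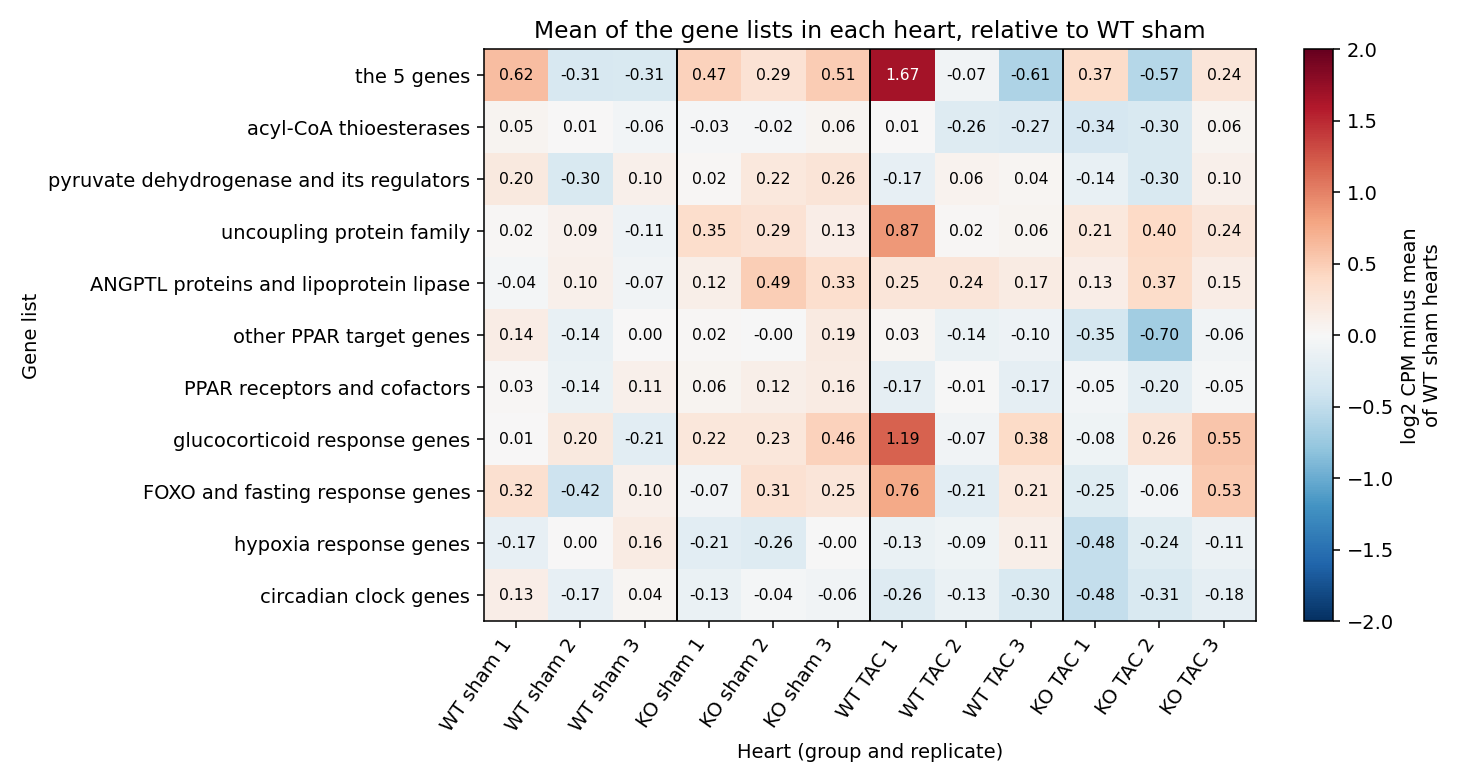
Mean log2 CPM of the tested genes of each list (rows) in each heart (columns), minus the mean of the 3 WT sham hearts. The glucocorticoid response genes stand at 1.19 and the 5 PPAR targets at 1.67 in WT TAC replicate 1. The other PPAR target genes stand at 0.035 there and at -0.70 in KO TAC replicate 2.

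Genes that respond to glucocorticoids, a second known input to *Pdk4* and *Angptl4*, were high in the same WT TAC heart. The mean of 11 such genes was 1.19 above the WT sham mean on the log2 scale in WT TAC replicate 1, and -0.21 to 0.55 in the other 11 hearts. *Fkbp5*, a chaperone partner and standard readout of the glucocorticoid receptor, was 215 CPM in WT TAC replicate 1 and 18.9 to 106 CPM in the others. FOXO and fasting response genes were at 0.76 in that heart and at -0.42 to 0.53 in the others. The mean of the other PPAR targets was 0.035 in that heart. All 11 glucocorticoid response genes had a higher value in WT TAC than in WT sham (3 at an unadjusted edgeR p of at most 0.05, against 3.68% of all genes in this direction, 0 after adjustment, median 0.45) and a lower value in KO TAC than in WT TAC (4 at an unadjusted p of at most 0.05, against 4.16% of all genes, 0 after adjustment, median -0.38). By heart their mean was 1.19, -0.067 and 0.38 in WT TAC and -0.080, 0.26 and 0.55 in KO TAC. The lower mean in KO TAC thus rested on WT TAC replicate 1. The 5 red blood cell markers were also higher in value in WT TAC than in WT sham and lower in KO TAC than in WT TAC (5 of 5 higher with a median of 0.82, and 5 of 5 lower with a median of -1.66, 0 past adjustment), and their mean in WT TAC replicate 1 was 1.91 above the WT sham mean. Their sum was 4357 CPM in that heart and 299 to 4493 CPM over all hearts, and its part in these values was not tested. *Cebpd*, a transcription factor of the acute response, had 0.81 and -0.60 in these comparisons, at adjusted p of 0.782 and 0.474 by edgeR. The part of these genes' regulators, or of the PPARs, in the levels of *Pdk4*, *Angptl4* and the other members was not tested.

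The remaining lists held no gene that passed in any of the 4 tested comparisons by edgeR. The median log2 difference in KO TAC against KO sham was -0.13 for the 8 other acyl-CoA thioesterases tested, -0.30 for the 13 genes of pyruvate dehydrogenase and its regulators, 0.054 for the 4 other uncoupling proteins tested, -0.067 for the 12 FOXO and fasting response genes, -0.22 for the 12 hypoxia response genes and -0.50 for the 14 circadian clock genes. Among the thioesterases, *Acot7* had a lower value in KO TAC than in KO sham hearts (-0.56, adjusted p = 0.175 by edgeR) and *Acot9* a higher one (0.38, adjusted p = 0.187 by edgeR). *Mpc2*, a subunit of the mitochondrial pyruvate carrier, was lower in value there (-0.54, adjusted p = 0.186 by edgeR), as was the clock output gene *Hlf* (-1.12, adjusted p = 0.175 by edgeR). In KO TAC against WT TAC the same lists had medians of -0.062, -0.071, -0.17, -0.25, -0.25 and -0.23. *Ankrd37*, a hypoxia target, led the hypoxia list with -1.20 (adjusted p = 0.374 by edgeR).

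**Figure D5:**
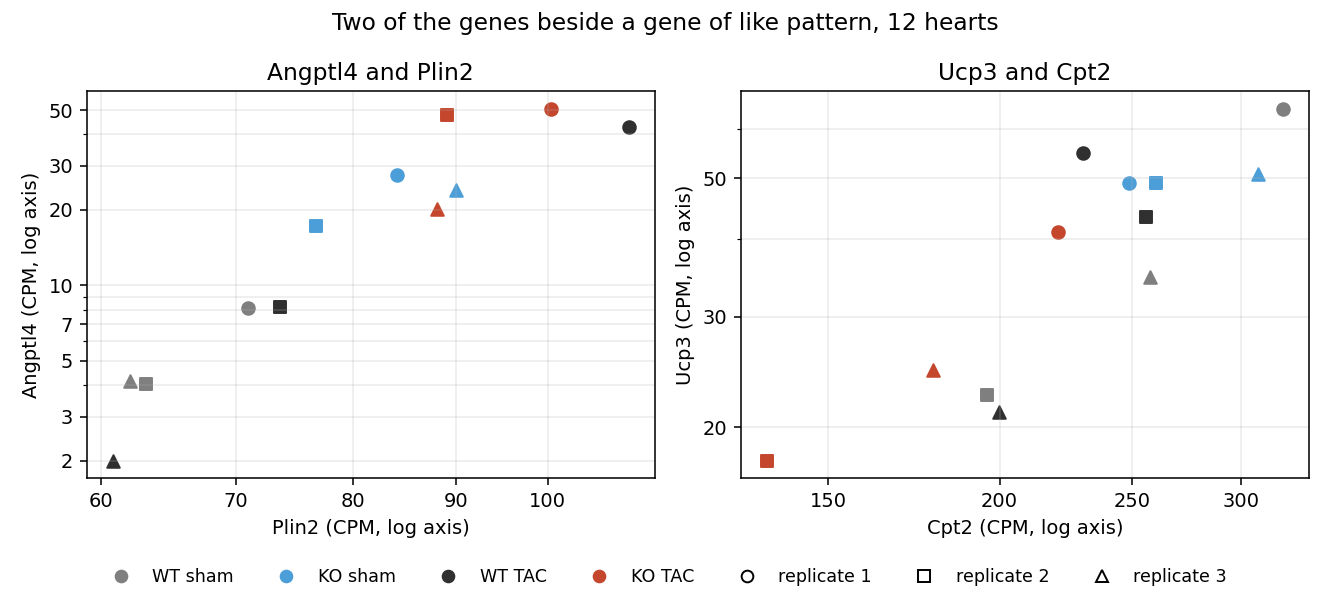
*Angptl4* against *Plin2* (left) and *Ucp3* against *Cpt2* (right), a point for each of the 12 hearts, in CPM on log axes, with groups by colour and replicate numbers by shape. Hearts with more *Plin2* had more *Angptl4*, over 60.8 to 109.7 CPM of *Plin2*, and KO TAC replicate 2 is lowest for both *Ucp3* and *Cpt2*.

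Other genes, 13417 in all, were ranked by the correlation of their log2 CPM with each member over the 12 hearts. Of the PPAR targets listed, *Plin2* was among the 3 nearest to *Angptl4* and *Cpt2* among the 3 nearest to *Ucp3*. None of the other nearest genes was on that list, and the share of PPAR targets among all ranked genes was not counted. The 3 nearest to *Angptl4* were *Pde1b*, a cyclic nucleotide phosphodiesterase (r = 0.96), *Plin2*, a lipid droplet coat protein that rises with fatty acid load (r = 0.94), and *Klf11*, a zinc finger transcription factor (r = 0.94). *Plin2* was 71.0, 63.2 and 62.0 CPM in WT sham, 84.2, 76.7 and 90.0 in KO sham, 109.7, 73.6 and 60.8 in WT TAC, and 100.4, 89.1 and 88.1 in KO TAC hearts, and r with *Angptl4* was 0.95 after removal of the group means. *Plin2* was picked for its likeness to *Angptl4* in these same hearts, which include the sham hearts used to choose *Angptl4*. *Plin2* was also higher in every KO sham than in every WT sham heart, as were 6.78% of all genes tested. Its KO TAC against WT TAC difference was 0.18 (adjusted p = 0.729 by edgeR).

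*Cpt2*, the inner carnitine palmitoyltransferase, was the nearest to *Ucp3* (r = 0.87, and 0.87 after removal of the group means), followed by *Impa2* (0.86) and *Asb12* (0.86). It was 249 to 309 CPM in KO sham and 135 to 221 CPM in KO TAC hearts (-0.61, adjusted p = 0.198 by edgeR). Nearest to *Pdk4* were *Atl1* (0.91), *Gm42078* (0.90) and *Stim1* (0.89), all of them highest in WT TAC replicate 1. Nearest to *Acot1* were *Lpcat3* (0.91), *Gm45927* (0.90) and *Ppip5k2* (0.90), and nearest to *Acot2* were *Trmt5*, a tRNA methyltransferase (0.93), *Crhr2*, a receptor of the urocortins (0.89), and *Nedd4l*, a ubiquitin ligase (0.87). No member was among the 3 nearest genes of another. These values describe the 12 hearts, which share groups and preparation, and carry no test.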

How the data were processed

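RNA of 12 hearts, 3 biological replicates in each of 4 groups, was sequenced. The authors deposited estimated counts per gene, not normalized, 40.6% of them not whole. Per their methods, reads were cleaned with SOAPnuke and aligned. The submitters' processing notes name HISAT2 2.0.4, STAR 2.3.0, DESeq2 and the builds mm8 and mm9; the counting tool and annotation are not given in the sources used here. Estimated counts were rounded, filtered with filterByExpr (minimum count 10; 14094 genes left), scaled with TMM (0.931 to 1.09) and fitted with edgeR 4.0.16 (R 4.3.3) in a quasi-likelihood model of the 4 groups, with Benjamini-Hochberg adjustment over all genes and a threshold of 0.05. CPM are TMM-normalized, except marker sums, which use library totals. Log2 CPM used a prior count of 2. Heart tables held the values of the joint table for 11 hearts; the own table of WT sham replicate 2 holds 133 genes, so the joint table was used. Alternatives were DESeq2 1.42.0, limma-trend (limma 3.58.1), other scalings and filters, a replicate block, only the hearts compared, added *Acot1* and *Acot2* counts, and leaving out each heart. The tests were tried on simulated data. The members, gene lists and tests were chosen with earlier results of these data known. *Angptl4* was tested only between the TAC groups, and no member between the sham groups.

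Genes were named by rule: the members, *Fabp3*, genes working with them, up to 2 genes of each list with the smallest p per comparison (up to 4 if they passed), and the 3 genes best correlated with each member (mean of at least 1 CPM). *Acot3* to *Acot6* were added as genomic neighbours. Entries that shared a symbol were kept apart by Entrez identifier, and *Plin2* stands for entry 11520 alone. Transcripts came from GENCODE M21 and promoters from RefSeq (GRCm38.p6), a later build than those of the notes.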

Additional observations from a re-analysis of the deposited data

How the results depend on the processing

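Of 385 alternative values of the 25 gene and comparison pairs, 372 kept their direction and side of the threshold or, where no test was made, moved by less than the spread between replicates, and no member passed an adjusted p of 0.05 in any of them. Leaving out 1 heart at a time turned the direction of 9 pairs, not counting *Acot2* between the sham groups, which is given below. There were also large moves without a turn: *Pdk4* ranged from -2.25 to -0.039 in KO TAC against WT TAC and from 0.042 to 2.45 in WT TAC against WT sham, and *Angptl4* from 0.62 to 2.93 in KO TAC against WT TAC. The range was -2.34 to 0.051 for *Acot1* in KO TAC against WT TAC. In WT TAC against WT sham it was -0.072 to 2.24 for *Angptl4*, -0.33 to 0.48 for *Ucp3*, -1.30 to 0.19 for *Acot1* and -0.081 to 0.36 for *Acot2*. For the genotype-by-surgery difference it was -1.46 to 0.86 for *Angptl4*, -2.02 to 0.39 for *Pdk4* and -2.01 to 0.38 for *Acot1*, and for *Pdk4* in KO sham against WT sham it was -0.69 to 0.22. WT TAC replicate 1 gave the turn in 6 of these 9, with 0.051 for *Acot1* between the TAC groups, -0.072 for *Angptl4* and -0.081 for *Acot2* with TAC in WT, and 0.86, 0.39 and 0.38 for the genotype-by-surgery difference of *Angptl4*, *Pdk4* and *Acot1*. *Ucp3* in WT TAC against WT sham gave 0.48 without WT sham replicate 1 and 0.28 without WT TAC replicate 3, and *Acot1* gave 0.19 and 0.072 without WT TAC replicates 2 and 3 and 0.13 with *Acot2* counts added. *Pdk4* in KO sham against WT sham gave 0.22 without WT sham replicate 1. Between the sham groups *Acot2*, near 0 throughout, also changed sign (-0.0035 to 0.29 over the hearts left out), as did *Acot1* with *Acot2* counts added (0.053). Scaling by library totals shifted the median of all genes by 0.10 on the log2 scale in KO TAC against WT TAC and by 0.13 in the genotype-by-surgery difference, and turned no member.

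Replicates with the same number correlated at 0.172, 0.0611 and 0.362 between the TAC groups and at -0.141 to 0.127 in the other comparisons, so the numbers were not taken to pair hearts. With the replicate number as a block, *Ucp3* in WT TAC against WT sham was 0.023, and edgeR called 8 genes in place of 11 in KO TAC against WT TAC and 8 in place of 15 in KO sham against WT sham. Counts over all genes moved more with other settings: in KO TAC against WT TAC, 0 with only the 6 hearts compared, 17 without a filter, 101 with DESeq2 and, leaving out a heart, 6 to 103. In KO TAC against KO sham the count of 0 became 443 with DESeq2 and up to 778 when KO TAC replicate 3 was left out, and in KO sham against WT sham DESeq2 called 105. The cause was not tested. Depth limits *Acot1* and *Angptl4* most, with as few as 24.7 and 20 estimated counts in a heart.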
